A study of Mus musculus with 64 samples.

Results

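The regions described here are stretches of mouse autosomes that carried 2 chromatin marks of opposite reputation in stimulated B cells: H2AK119Ub, the monoubiquitin put on histone H2A by Polycomb repressive complex PRC1, and H3K27ac, the acetyl mark of active promoters and enhancers. They were chosen from the peak lists at 24 h, as bases covered by H2AK119Ub peaks in at least 4 of 5 libraries, by H3K27ac peaks in at least 2 of 3 and by H3K27me3 peaks in none of 4, joined where gaps were 500 bp or shorter and kept at 500 bp or longer. The rule found 2480 such regions with a total length of 9.61 Mb, or 0.391% of the autosomes, among 18902 regions of 4 kinds built the same way. The other kinds were 6727 acetylated only regions (H3K27ac without H2AK119Ub or H3K27me3), 3187 ubiquitinated only regions (H2AK119Ub without H3K27ac or H3K27me3) and 6508 Polycomb regions. The Polycomb regions had H2AK119Ub with H3K27me3 in at least 3 of 4 libraries and H3K27ac in none of 3.

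The cells were CD23+ B cells from the spleens of female F1 mice, born to C57BL/6 mothers that were heterozygous for an Xist deletion and to M. m. castaneus fathers, a cross that skews which X chromosome is inactivated. Cells were taken unstimulated (0 h) or after 12 h or 24 h with 1 µM CpG, an oligonucleotide that activates Toll-like receptor 9. CUT&RUN, which uses an antibody to bring a nuclease to its target and releases the chromatin found there, was read for 6 targets with 3 to 5 libraries each, and the 61 lists used here held peaks of the Cast allele only, on the mm10 build. The labels call the libraries biological replicates and do not say which came from the same animal or culture.

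Ring1B is the catalytic subunit of PRC1 and Suz12 a core subunit of PRC2, the complex that writes H3K27me3. In the textbook scheme PRC2 marks silent developmental genes, canonical PRC1 reads that mark through CBX proteins, and variant PRC1 ubiquitinates H2A without needing it. H2AK119Ub without H3K27me3 is therefore a state in which the product of PRC1 is present and that of PRC2 is not. H3K27 cannot be acetylated and methylated on the same residue at once, whereas H2AK119Ub sits on another histone and can in principle share a nucleosome with H3K27ac. A bulk peak list cannot tell marks in the same cell from marks in different cells of the sample, nor fewer cells with a mark from less of it per cell.

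The start sequences of 4 genes with such a region show CG-rich starts and a CG-poor one among the members. Each is the 300 bases from 250 before to 50 after the annotated start, written 5′ to 3′ along the gene, from RefSeq on GRCm38.p6 (the assembly of mm10), with each CG dinucleotide in capitals. Gadd45b holds 24 CG dinucleotides, Tnfaip3 22 and Cxcr4 20, while Cd72, a B cell surface protein gene, holds 7.
Gadd45b, chr10:80929841-80930140, + strand: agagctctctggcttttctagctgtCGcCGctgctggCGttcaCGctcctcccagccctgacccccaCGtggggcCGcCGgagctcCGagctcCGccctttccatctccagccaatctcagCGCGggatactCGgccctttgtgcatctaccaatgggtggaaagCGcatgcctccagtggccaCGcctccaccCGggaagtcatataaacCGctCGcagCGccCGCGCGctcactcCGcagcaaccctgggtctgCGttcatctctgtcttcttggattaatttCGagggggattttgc
Tnfaip3, chr10:19015361-19015660, - strand: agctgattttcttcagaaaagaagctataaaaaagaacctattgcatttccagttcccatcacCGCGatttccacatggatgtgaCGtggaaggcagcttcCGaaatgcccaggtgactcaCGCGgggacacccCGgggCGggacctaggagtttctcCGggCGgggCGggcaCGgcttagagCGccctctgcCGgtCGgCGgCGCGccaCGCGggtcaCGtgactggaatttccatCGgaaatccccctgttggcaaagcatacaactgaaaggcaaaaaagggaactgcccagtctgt
Cxcr4, chr1:128592250-128592549, - strand: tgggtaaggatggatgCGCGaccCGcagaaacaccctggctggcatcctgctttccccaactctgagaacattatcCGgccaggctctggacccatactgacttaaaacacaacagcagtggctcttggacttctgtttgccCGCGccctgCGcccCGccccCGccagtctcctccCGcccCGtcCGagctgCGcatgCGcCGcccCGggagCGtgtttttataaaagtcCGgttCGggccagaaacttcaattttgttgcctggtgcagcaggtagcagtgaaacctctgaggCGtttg
Cd72, chr4:43454577-43454876, - strand: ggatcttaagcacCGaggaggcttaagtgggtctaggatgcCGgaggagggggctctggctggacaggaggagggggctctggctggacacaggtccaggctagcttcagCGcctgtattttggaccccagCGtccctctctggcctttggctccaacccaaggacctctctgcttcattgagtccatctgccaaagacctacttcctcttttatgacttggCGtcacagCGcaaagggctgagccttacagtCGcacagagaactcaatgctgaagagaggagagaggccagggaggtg

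Nfkb2, which encodes the p100 precursor of an NF-kB subunit, and Ltb, which encodes lymphotoxin beta, are shown because their start windows hold a form of the NF-kB recognition sequence. The capitals mark it, and in the first sequence they spell the motif as it was searched, on both strands. On the gene strand of Ltb it reads as the reverse complement. These 2 genes were picked after their letters had been seen.
Nfkb2, chr19:46305445-46305744, + strand: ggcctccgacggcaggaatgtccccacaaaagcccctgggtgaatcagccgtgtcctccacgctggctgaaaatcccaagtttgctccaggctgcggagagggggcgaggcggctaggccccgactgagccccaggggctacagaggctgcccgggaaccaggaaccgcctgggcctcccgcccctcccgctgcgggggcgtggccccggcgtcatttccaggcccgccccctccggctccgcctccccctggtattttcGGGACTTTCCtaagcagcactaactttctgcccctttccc
Ltb, chr17:35194257-35194556, + strand: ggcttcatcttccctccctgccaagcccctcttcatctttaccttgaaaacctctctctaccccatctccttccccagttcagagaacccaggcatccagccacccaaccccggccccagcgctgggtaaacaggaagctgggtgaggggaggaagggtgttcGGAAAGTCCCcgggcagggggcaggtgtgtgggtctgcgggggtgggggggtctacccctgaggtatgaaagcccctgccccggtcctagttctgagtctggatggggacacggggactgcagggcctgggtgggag

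Start windows of 968 transcripts from 839 genes lay in the regions. Their median CG count was 17 per 300 bases (quartiles 7 and 25), against 7 (quartiles 3 and 21) over all 31396 autosomal start windows, 23 in acetylated only regions and 15 in Polycomb regions. The GC box letters GGGCGG stood in 59.7% of the member windows and in 36.0% of all windows. They stood in 61.1% of acetylated only, 53.3% of Polycomb and 46.5% of ubiquitinated only windows, so they are not particular to the members. The ETS letters CCGGAAGT stood in 4.65% of member windows, 12.3% of acetylated only windows, 1.74% of Polycomb windows and 3.95% of all windows. The NF-kB motif was rare everywhere, with 8 matches among the 968 member windows (0.826%) and 50 among all 31396 (0.159%). Windows were counted per transcript and can overlap, so 1 site can count more than once. The Nfkb2 region alone holds 4 starts. A letter match is a description of these windows and does not show that a factor binds there.

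The values that chose the regions are given first, as description. Bases with H2AK119Ub in at least 4 of 5 libraries at 24 h added up to 72.2 Mb, and bases with H3K27ac in at least 2 of 3 to 74.8 Mb. The 11.4 Mb carrying both were 15.8% of the H2AK119Ub bases and 15.3% of the H3K27ac bases. Of those shared bases 84.3% had no H3K27me3 peak in any 24 h library, whereas 56.5% of all the H2AK119Ub bases had one in at least 3 of 4. Close to the limits of the rule, 5.32 Mb had H2AK119Ub in exactly 4 libraries and 5.52 Mb more in exactly 3, and 3.75 Mb had H3K27ac in exactly 2 and 4.48 Mb more in exactly 1. A further 0.569 Mb had H3K27me3 in exactly 1 library, and 29 stretches of 400 to 499 bp fell just under the length limit while 19 of 500 to 599 bp fell just above it. Region length ranged between 503 and 22372 bp with a median of 3516 bp.

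One library stood apart in this choice. At 24 h H2AK119Ub covered 99.6, 94.9, 93.4, 60.3 and 96.5% of member bases in replicates 1 to 5. Replicate 4 also had the shortest of the 5 lists, 59.1 Mb on the autosomes against 112 to 213 Mb in the others. Of the 2480 regions 964 lacked support from replicate 4 alone, and 1172 were held by all 5 libraries. Without replicate 4 the rule gave 3406 regions with 3 of the other 4 libraries required and 2189 with all 4 required.

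List length differed between times for the histone marks and bears on every value below. On the autosomes the H2AK119Ub lists ranged between 27.7 and 58.5 Mb at 0 h, between 100 and 161 Mb at 12 h and between 59.1 and 213 Mb at 24 h. The range of H3K27ac lists was 16.3 to 51.8 Mb at 0 h, 58.9 to 123 Mb at 12 h and 51.6 to 126 Mb at 24 h. Ring1B and Suz12 lists, which were called as a fixed top share of signal, stayed between 48.9 and 101 Mb. The sequencing depth behind each list is unknown, so a base outside a peak may have been marked below the limit of detection. The labelled cell type was checked through H3K27ac on marker genes, where 10 of 10 B cell genes had a peak in at least 2 libraries at 0, 12 and 24 h. T cell markers had one at 2, 3 and 3 of 8 genes, myeloid markers at 0, 1 and 3 of 8, and erythroid markers at 0 of 4 at each time. Cd3e, Cd4 and Cd8a among the T cell markers and Lyz2 and Cebpa among the myeloid ones had no H3K27ac peak in any library.

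**Figure D1:**
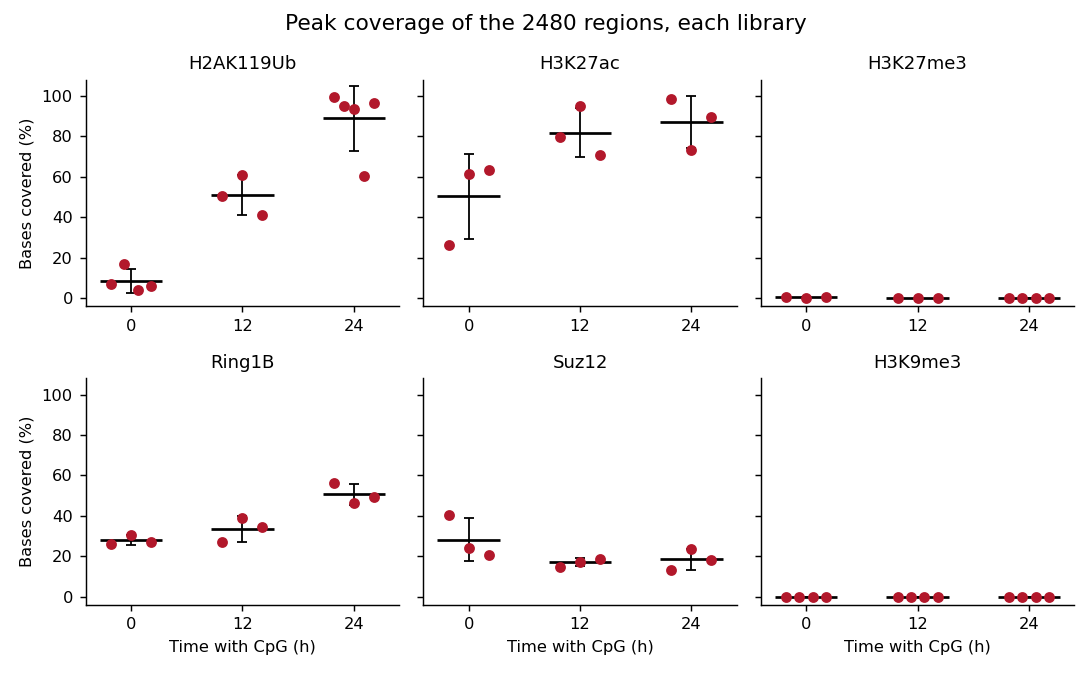
Percent of the bases of the 2480 regions covered by peaks (vertical axis) at 0, 12 and 24 h with CpG, 1 panel per target; points are libraries, the bar is the mean and the whisker the SD. H2AK119Ub is higher in each 12 h library than in any 0 h library, its 24 h values were set by the rule, and Ring1B reaches 46.2 to 56.4% at 24 h, while H3K27me3 and H3K9me3 lie at or near 0.

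Before stimulation many of these regions were already acetylated and few were ubiquitinated. H2AK119Ub covered 7.01, 16.9, 3.86 and 5.77% of their bases in the 0 h libraries and 50.3, 61.0 and 41.1% in the 12 h libraries, before the 24 h values that chose them. H3K27ac covered 26.1, 61.3 and 63.6% at 0 h, 79.5, 94.8 and 70.9% at 12 h, and 98.5, 73.3 and 89.4% at 24 h. The 12 h libraries of each mark lay above all 0 h libraries of that mark, but the lists were also longer at 12 h. The ratio of member to autosomal coverage was 9.84 ± 0.450 at 12 h and 4.88 ± 1.62 at 0 h for H2AK119Ub (SD). For H3K27ac the ratio was lower at 12 h, 24.95 ± 5.47 against 33.56 ± 5.11 at 0 h. Other kinds of region had similar courses. Mean H2AK119Ub in ubiquitinated only regions was 57.6% at 12 h and 8.28% at 0 h. Mean H3K27ac in acetylated only regions was 74.6% at 12 h and 38.8% at 0 h. H3K27me3 covered 0.307, 0.200 and 0.647% at 0 h and 0.106, 0.0633 and 0.000728% at 12 h, with 0% at 24 h by the rule, and H3K9me3, the mark of constitutive heterochromatin, covered no base in any of its 12 libraries.

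A region was counted as holding a mark where the mean coverage over the libraries of a time was at least 50%. At 0 h, 1195 regions (48.2%) held H3K27ac without H2AK119Ub, 1104 (44.5%) held neither, 131 (5.28%) held H2AK119Ub alone and 50 (2.02%) held both. At 12 h, 978 (39.4%) held both, 1026 (41.4%) H3K27ac alone, 290 (11.7%) H2AK119Ub alone and 186 (7.50%) neither, and at 24 h all held both by the rule. The commonest path was H3K27ac alone at 0 and 12 h, followed by 625 regions (25.2%), and next came H3K27ac alone at 0 h and both marks at 12 h, with 542 (21.9%). Another 372 regions (15.0%) held neither mark at 0 h and H3K27ac alone at 12 h, and 324 (13.1%) held neither at 0 h and both at 12 h. H2AK119Ub was held before H3K27ac in the 131 regions that held it alone at 0 h, and in 242 more (9.76%) that held neither mark at 0 h and H2AK119Ub alone at 12 h.

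**Figure D2:**
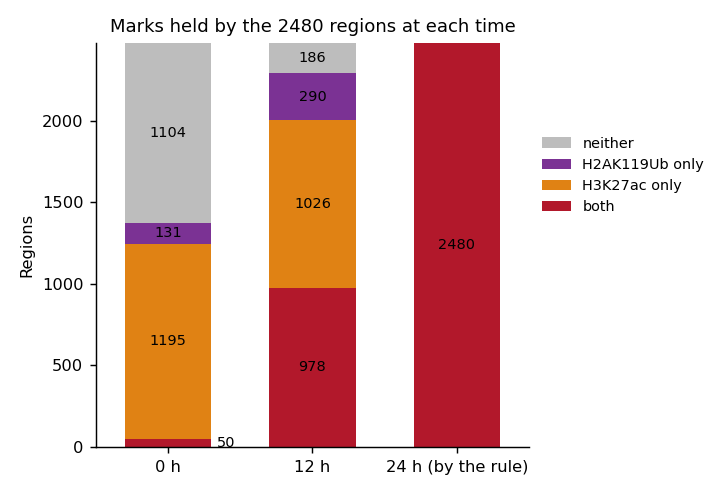
Number of the 2480 regions (vertical axis) that held both marks, H3K27ac only, H2AK119Ub only or neither at each time, where held means mean peak coverage of at least 50%. At 0 h 1195 regions hold H3K27ac only and 50 hold both, and at 12 h 978 hold both; the 24 h bar is set by the rule.

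Coverage at 12 h was tested against 0 h by limma on the percent of each region covered, without the 24 h libraries, over the regions of all kinds with a peak in at least 2 libraries. For H2AK119Ub 1490 of the 2480 regions could be tested, and at a Benjamini-Hochberg adjusted p under 0.05 coverage was higher at 12 h in 521 (35.0%) and lower in 9. Over all 9775 regions tested 31.2% were called higher and 0.246% lower, so the share among the members was near the background. A region without a peak at 0 h was tested only if 12 h libraries had one, so these shares are no support for a rise. Without the filter 507 of all 2480 members (20.4%) were called higher, against 15.5% of all 18902 regions. All regions include the acetylated only ones, which were chosen for having no H2AK119Ub at 24 h. Every 12 h H2AK119Ub library lay above every 0 h one in 22.6% of members, 25.1% of ubiquitinated only and 31.4% of Polycomb regions. With all lists cut to the same number of peaks the split of calls became 24 higher and 23 lower of the 268 members still tested, against 245 higher and 224 lower of 3694 over all regions. Scaling by autosomal coverage gave 760 higher (51.0%) and 61 lower among the members, against 4110 higher (42.0%) and 1297 lower over all regions. For H3K27ac 324 of 2111 tested regions (15.3%) were called higher and 1 lower, against 15.3% higher and 0.0488% lower over all 8199 regions tested. Without the filter the shares called higher were 12.5% of the 2480 members and 5.87% of all regions. All regions include ubiquitinated only and Polycomb ones, which were chosen for having no H3K27ac at 24 h. Every 12 h H3K27ac library lay above every 0 h one in 15.4% of members and 20.8% of acetylated only regions. Scaling by autosomal coverage gave 307 higher and 5 lower among the members, against 1053 higher and 34 lower over all regions. The median difference in scaled coverage was -1.11 in the members tested and 1.50 over all regions tested. With lists of equal length the member split became 57 higher and 75 lower, while over all 2507 regions tested it was 201 higher and 116 lower. Without 12 h replicate 3 the H2AK119Ub calls among the members numbered 804, with 61.0% of the members tested called higher, against 46.5% of all regions. The H3K27ac calls numbered 528 without 12 h replicate 3 of that mark, with 25.4% of the members called higher, against 28.4% of all regions.

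Regions with the greatest H2AK119Ub differences went between no coverage and full coverage. The Pde2a region (chr7:101453932-101461376), at the gene of a phosphodiesterase that degrades cyclic nucleotides, had 100% in each 12 h library and 0% in each 0 h library (adjusted p = 3.2e-13 by limma). Wwox, Sorcs2 and Osgin1 had the same values and the same p. Where every library of a time has the same value the region's own spread is 0, and the p then rests on the spread that limma borrows from the other regions. H3K27ac was already present at 0 h over Pde2a, with 88.5, 100 and 100% at 0 h, 86.3, 80.3 and 57.8% at 12 h and 100, 74.8 and 99.1% at 24 h.

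The 9 regions with lower H2AK119Ub at 12 h are an exception to the general course, and 4 of them have a gene name. Dusp4, a phosphatase that inactivates MAP kinases, had a region (chr8:34806616-34813431) with H2AK119Ub at 100% in all 0 h libraries, 0% in all 12 h libraries and 100, 100, 100, 41.1 and 56.8% at 24 h. Its H3K27ac was 0, 20.2 and 100% at 0 h and 100% in every later library, and its H3K27me3 was 73.4, 0 and 100% at 0 h and 0% later. Tet2, which oxidises 5-methylcytosine, had a region (chr3:133545076-133548288) with H2AK119Ub at 100, 100, 97.5 and 100% at 0 h, 0, 0 and 6.22% at 12 h and 100, 100, 100, 0 and 100% at 24 h. Dennd1b showed the same order, with 99.3 to 100% at 0 h, 0% at 12 h and 100% in 4 of 5 libraries at 24 h. H2AK119Ub fell at 12 h in each of these regions in the limma fit (Dusp4 adjusted p = 9.4e-10, Tet2 1.1e-07, Dennd1b 1.1e-09).

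Prior H3K27me3 was rare among the members, which the rule had chosen for lacking it at 24 h. By the 50% threshold 1 of the 2480 regions held H3K27me3 at 12 h, against 8 at 0 h. Acetylated only and ubiquitinated only regions, also chosen without H3K27me3, held it in 0 regions at both times. Mean coverage at 0 h was 0.385% in members, 0.00292% in acetylated only and 0.146% in ubiquitinated only regions. At 12 h it was 0.0566, 0.000175 and 0.240%. Only 14 regions had enough H3K27me3 peaks to be tested at 12 h against 0 h, of which 13 had a lower and 1 a higher mean at 12 h, and 10 had no H3K27me3 peak at 12 h. None was called by limma, among the members or among all 5128 regions tested (0%), and at an unadjusted p under 0.05 the members had 0 higher and 2 lower against 159 higher and 7 lower over all regions. Besides Dusp4 the 14 included Bcl2l11, which encodes the pro-apoptotic protein Bim, with 0% in each 12 h library, against 24.3, 0 and 16.7% at 0 h, and Gadd45b with 9.70, 0 and 1.08% at 12 h, against 0, 0 and 52.7% at 0 h.

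Ring1B, which the rule did not use, covered these regions more than any of the other kinds at each time. Its peaks covered 26.0, 30.8 and 27.1% of member bases at 0 h, 26.8, 39.1 and 34.5% at 12 h and 56.4, 46.2 and 49.1% at 24 h. All 24 h libraries lay above all 0 h libraries, and the mean at 24 h was 50.6 ± 5.22%, against 27.9 ± 2.51% at 0 h (SD, n = 3 each). In Polycomb regions the 24 h mean was 20.6 ± 0.907%, against 17.1 ± 2.16% at 0 h, in acetylated only regions 13.4 ± 1.74%, against 9.29 ± 0.995%, and in ubiquitinated only regions 15.2 ± 1.93%, against 9.28 ± 0.499%. The Ring1B lists themselves covered a mean of 2.79% of the autosomes at both 24 h and 0 h, so the ratio of member to autosomal coverage was 18.2 ± 1.25 at 24 h and 10.1 ± 1.62 at 0 h. The difference between kinds of region was not tested.

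Suz12 did not share the higher coverage of Ring1B at 24 h. It covered 40.3, 23.9 and 20.6% of member bases at 0 h, 14.9, 17.3 and 18.9% at 12 h and 13.4, 23.8 and 18.2% at 24 h, so that 2 of the 24 h libraries lay below all 0 h libraries and the third did not. Replicate 1 at 0 h stood highest in every kind of region. In Polycomb regions the Suz12 mean was 26.9 ± 5.25% at 24 h and 26.9 ± 9.99% at 0 h (SD, n = 3 each), and in member regions 18.5 ± 5.18% at 24 h and 28.3 ± 10.5% at 0 h. The ratio of member to autosomal coverage was 7.77 ± 1.34 at 24 h and 9.75 ± 3.07 at 0 h. Without replicate 1 the 0 h mean in member regions was 22.3% and the ratio 7.99, so the lower mean at 24 h rested largely on that library.

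**Figure D3:**
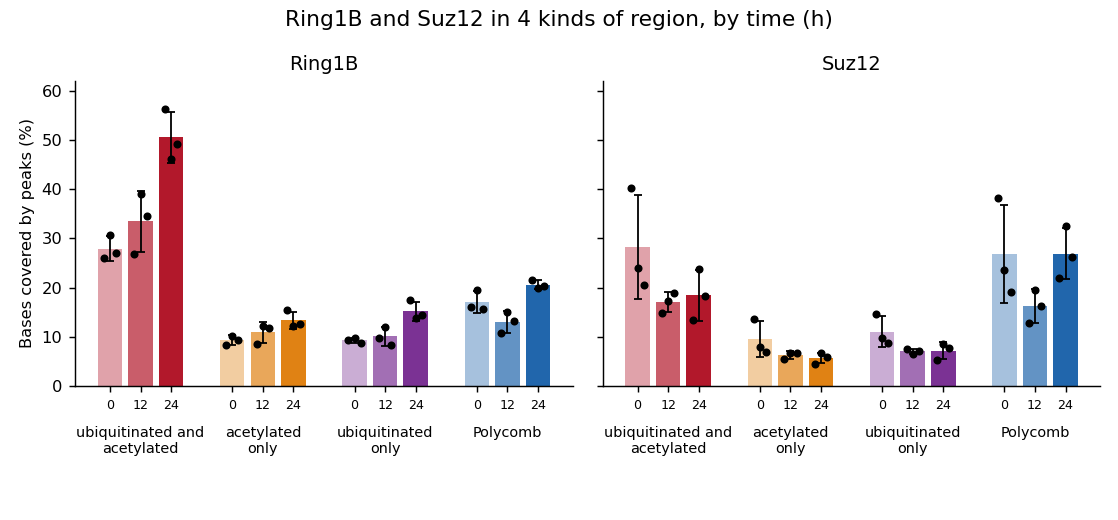
Percent of bases covered by Ring1B (left) and Suz12 (right) peaks at 0, 12 and 24 h in the regions with both H2AK119Ub and H3K27ac and in the 3 other kinds of region; bars are means, whiskers SD and points the 3 libraries. Ring1B in the doubly marked regions has a mean of 50.6% at 24 h, and no library of another kind reaches 25%.

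Region by region, no difference in Ring1B passed the test. Of 11634 regions tested in limma, 2271 of them members, 0 had an adjusted p under 0.05 for 24 h against 0 h (0% of all tested), the smallest adjusted p being 0.0618. At an unadjusted p under 0.05 coverage was higher at 24 h in 478 member regions (21.0%) and lower in 11, against 1372 (11.8%) and 264 over all regions, members included. The median difference was 22.5 percentage points in the members tested and 7.84 over all regions tested. The zero depended on the settings of the fit, as 62 member regions were called higher and 1 lower without the mean-variance trend and robust options, which is 2.73% higher among the members against 1.30% over all regions. Presence or absence in at least 50% of the region gave 75 higher among the members (3.30%) against 1.34% over all regions, and leaving out 12 h replicate 1 gave 17 higher and 1 lower (0.757% higher) against 0.240% higher over all regions. Every 24 h library exceeded every 0 h library in 570 of 2480 members (23.0%) and in 7.85% of all 18902 regions. The reverse order held in 22 members (0.887%) and in 1.38% of all regions.

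For Suz12 limma called 0 of 11109 regions tested (0%), of which 1968 were members, with a smallest adjusted p of 0.17. At an unadjusted p under 0.05 it was lower at 24 h in 213 members and higher in 36, against 786 lower and 337 higher over all regions. The median difference of the members tested was -11.7 percentage points, against -4.90 over all regions tested. Without 0 h replicate 1 these medians were -5.50 in the members and 0 over all regions. Every 24 h library was below every 0 h library in 194 members (7.82%) and in 4.05% of all regions, and the reverse held in 25 members (1.01%) and in 1.44% of all regions. Presence or absence in at least 50% of the region gave 60 lower and 7 higher calls among the 1968 members, against 171 lower and 52 higher over all 11109 regions.

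Counting a subunit as present where at least 2 of 3 libraries had a peak, 889 regions had both Ring1B and Suz12 at 0 h, 523 at 12 h and 832 at 24 h. Ring1B without Suz12 was found in 311 regions (12.5%) at 0 h, 860 (34.7%) at 12 h and 1085 (43.8%) at 24 h. Suz12 without Ring1B was found in 326, 122 and 61 regions at the same times, and neither in 954, 975 and 502. A Ring1B peak in all 3 libraries was found in 618 regions at 0 h, 545 at 12 h and 1464 (59.0%) at 24 h, and 222 regions had none in any 24 h library. Mean Ring1B coverage was 52.2% at 24 h and 31.5% at 0 h in the regions that held H3K27ac alone at 0 h, and 49.2% at 24 h and 25.3% at 0 h in those that held neither mark at 0 h.

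The longest region (chr15:27754349-27776720, 22372 bp) lay in Trio, which encodes a guanine nucleotide exchange factor of small GTPases. Its Ring1B coverage was 8.94, 0 and 24.2% at 0 h, 0, 51.3 and 0% at 12 h and 16.5, 39.4 and 29.5% at 24 h, so the times overlapped. The highest Ring1B over all 9 libraries was at Leprot (chr4:101646725-101647747), with 97.0 to 100% in each, which also had the highest Suz12 with 62.3 to 100%. A region of Ezh2 (chr6:47591407-47594434), the methyltransferase subunit of PRC2, was also among the 6 highest for Ring1B, with 100, 100 and 100% at 0 h, 100, 100 and 98.5% at 12 h and 70.0, 100 and 100% at 24 h. Its Suz12 was 100, 100 and 93.3% at 0 h, 4.42, 75.0 and 0% at 12 h and 0, 0 and 65.7% at 24 h, and its H3K27ac was 0, 0 and 100% at 0 h and 100% in every 12 h library.

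Gene starts and gene bodies both held these regions. On the 18 autosomes for which start windows were at hand, 731 of 2426 regions (30.1%) held a gene start, 1018 (42.0%) lay in a gene without one and 677 (27.9%) lay between genes. Acetylated only regions held a start in 23.6% and lay between genes in 7.97%, and Polycomb regions in 27.1 and 32.3%. The start table holds 81.7% of protein-coding genes on those autosomes, so each share with a start is an undercount. Regions with a start had more Ring1B, 59.7% on average at 24 h and 36.2% at 0 h, than regions without one, 46.5% at 24 h and 24.4% at 0 h. Their H2AK119Ub at 12 h was 51.9%, against 50.2% in regions without a start.

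Around the starts of the 839 genes Ring1B and Suz12 formed narrow peaks and the histone marks broad ones. In the 500 bp after the start Ring1B covered 52.7, 54.6 and 78.7% at 0, 12 and 24 h, and 10 kb upstream it covered 7.51, 7.88 and 11.0%. Suz12 at the same place covered 58.8, 32.4 and 39.2%. Around 1941 starts in acetylated only regions Ring1B covered 39.5, 40.3 and 51.8% after the start, and Suz12 48.3, 19.8 and 23.1%. H2AK119Ub in acetylated only regions was near 0 at the start by the rule, and reached 8.93% at 10 kb upstream at 24 h.

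**Figure D4:**
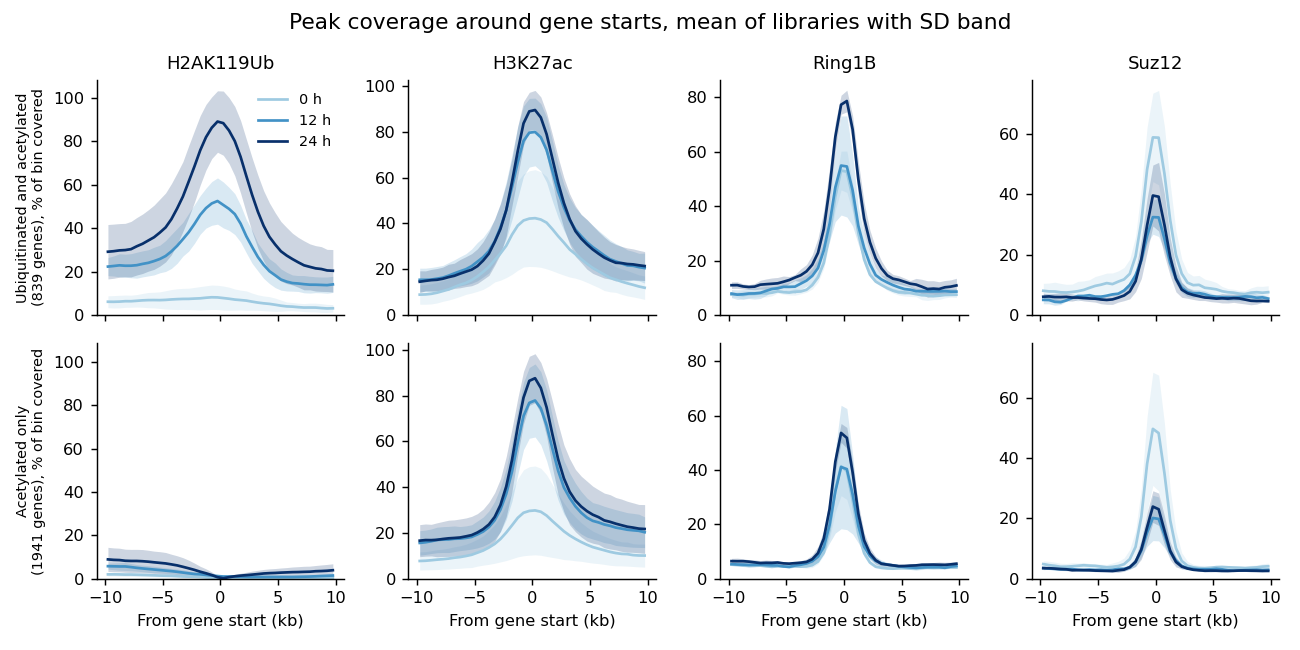
Percent of each 500 bp bin covered by peaks (vertical axis) against distance from the gene start in kb (horizontal axis), for starts in the doubly marked regions (top row) and in acetylated only regions (bottom row); lines are means of libraries at 0, 12 and 24 h and bands their SD. Ring1B after the start reaches 78.7% at 24 h in the top row and 51.8% in the bottom row.

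Genes of B cell identity were among those with the higher shares in 20 gene lists, by a member region inside or within 2 kb. Over all 20665 autosomal protein-coding genes 1640 (7.94%) had one. Of 21 B cell transcription factors 10 had one (Irf8, Pax5, Ets1, Pou2f2, Spib, Id3, Bach2, Runx3, Runx1 and Foxo1), and of 25 B cell receptor and surface proteins 10 had one. These lists were high for acetylated only regions too, with 16 of the 21 and 13 of the 25 genes, against 4186 of all 20665. Shares were 12 of 29 replication-dependent histone genes, 8 of 18 NF-kB subunits and inhibitors, 7 of 17 survival and apoptosis genes, 7 of 17 MHC genes, 5 of 18 cell cycle inhibitors, 5 of 19 genes of B cell receptor signalling and 6 of 22 immediate early genes. At the other end, 0 of 24 nucleolar and ribosome biogenesis genes, 1 of 25 translation and unfolded protein genes and 1 of 26 developmental Polycomb targets had one, although 12 of the nucleolar genes had an acetylated only region and 23 of the developmental genes a Polycomb region. The lists were chosen with earlier results of these data known, longer genes have more room for a region, and no list was tested.

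**Figure D5:**
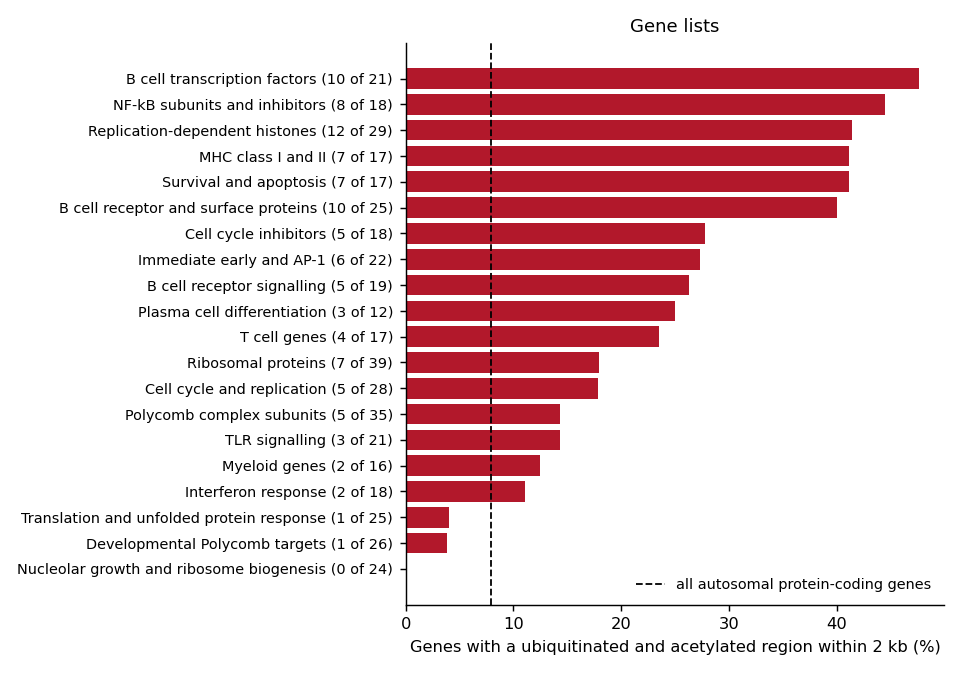
Percent of the autosomal genes of each list (horizontal axis) with a doubly marked region in the gene or within 2 kb of it; counts stand beside the list names and the dashed line is the 7.94% of all autosomal protein-coding genes. B cell transcription factors stand highest with 10 of 21, and 0 of 24 nucleolar genes have a region.

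Among the regulators of B cell identity, Pax5, Irf8 and Ets1 had 2 regions each, of which 1 each is described. The one in Pax5 (chr4:44712076-44719094), the factor that maintains B cell commitment, had no H2AK119Ub at 0 h. It had 40.1, 97.6 and 93.0% at 12 h, and 100, 100, 100, 39.4 and 100% at 24 h. H2AK119Ub rose at 12 h there (adjusted p = 0.010 by limma). Its H3K27ac was 0, 100 and 100% at 0 h, 98.4, 100 and 100% at 12 h and 100, 49.5 and 100% at 24 h. Ring1B was 0, 0 and 29.2% at 0 h, 0, 0 and 23.3% at 12 h and 15.8, 31.2 and 41.0% at 24 h, and Suz12 was 0% in all 9 libraries. Irf8 (chr8:120739345-120748650), a factor of germinal centre and myeloid cells, was fully acetylated at 0 h (91.3 to 100%) and had H2AK119Ub of 0% at 0 h, 0, 69.3 and 0% at 12 h and 100, 100, 100, 49.0 and 93.6% at 24 h. In Ets1 (chr9:32740981-32746707), which restrains plasma cell formation, H2AK119Ub was 0% in every library at 0 and 12 h, and Ring1B was 12.9, 25.7 and 35.1% at 0 h, 0, 35.0 and 73.8% at 12 h and 100, 79.7 and 67.0% at 24 h, with no overlap between 24 h and 0 h. Of the 5 regions of the transcription factor list that could be tested for H2AK119Ub at 12 h, 2 rose, against 31.2% of all regions tested.

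Cd72, an inhibitory co-receptor of B cells, had a region over its start (chr4:43450915-43459794) with H3K27ac of 98.4 to 100% in all 9 libraries. Its H2AK119Ub was 0% at 0 h, 80.5, 60.7 and 58.1% at 12 h and 100, 100, 95.8, 86.8 and 100% at 24 h, and it rose at 12 h (adjusted p = 0.00025 by limma). This start is the CG-poor one printed above. The CG-rich start of Cxcr4 (chr1:128589140-128597553), the receptor for CXCL12, had mixed H2AK119Ub before 24 h, with 61.7, 100, 0 and 0% at 0 h, 0, 97.8 and 55.7% at 12 h and 100, 87.3, 99.7, 100 and 100% at 24 h.

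Of 21 autosomal genes of Toll-like receptor signalling, the sensor of CpG among them, 3 had a region (14.3%). The share over all autosomal protein-coding genes was 7.94%, and 13 of the 21 had an acetylated only region. Tlr9 (chr9:106217494-106220952), the receptor that the stimulus engages, had H3K27ac of 100% in all 9 libraries, H2AK119Ub of 0% in every library at 0 and 12 h, and 100, 100, 100, 0 and 100% at 24 h. Irf5 (chr6:29522284-29531585), a transcription factor downstream of Toll-like receptors, was likewise fully acetylated throughout, and its H2AK119Ub was 0% at 0 h, 100, 51.0 and 46.3% at 12 h and 100, 56.4, 100, 45.1 and 100% at 24 h (12 h against 0 h adjusted p = 0.015). Irak4, the kinase that Myd88 recruits, gained both marks by 12 h. Its region (chr15:94541888-94544229) had H2AK119Ub of 100, 98.3 and 100% at 12 h, against 0% in each 0 h library (adjusted p = 5.9e-11), and H3K27ac of 95.1, 100 and 100% at 12 h, against 0% in each 0 h library (adjusted p = 3.7e-06).

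NF-kB genes with a region were Nfkbid, Tnfaip3, Bcl3, Traf1, Nfkb2, Rela, Nfkb1 and Traf2. Tnfaip3 (chr10:19014593-19020365), the deubiquitinase A20 that limits NF-kB signalling, had H2AK119Ub of 0% at 0 h, 30.0, 0 and 0% at 12 h and 100, 100, 100, 0 and 100% at 24 h. Nfkb2 (chr19:46302884-46306581) had 0% at 0 h, 98.4, 0 and 100% at 12 h and 99.1 to 100% at 24 h. Nfkb2 also had both subunits in every library, Ring1B with 91.1, 52.2 and 95.1% at 0 h, 100, 93.5 and 66.2% at 12 h and 73.3, 69.9 and 77.9% at 24 h. Its Suz12 was 81.8, 96.9 and 83.2% at 0 h, 55.8, 45.5 and 51.3% at 12 h and 34.0, 41.3 and 60.5% at 24 h. Suz12 at its start was thus lower in all 24 h libraries than in all 0 h libraries, though limma did not call it (adjusted p = 0.49). Ltb (chr17:35192713-35197274) had no Suz12 peak in any library. Of the NF-kB list 2 regions could be tested for H2AK119Ub at 12 h, with none called higher or lower, and 1 of 8 rose in H3K27ac, against 31.2% for H2AK119Ub and 15.3% for H3K27ac over all regions tested.

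Cell cycle inhibitors with a region were Btg2, Gadd45b, Cdkn2d, Cdkn1b and Cdkn1a. Btg2 (chr1:134058319-134073506), an antiproliferative gene of quiescent lymphocytes, was acetylated in all libraries (90.2 to 100%), and its H2AK119Ub was 0% at 0 h, 42.9, 79.0 and 98.1% at 12 h and 100, 100, 100, 22.2 and 100% at 24 h. It rose at 12 h (adjusted p = 0.0070 by limma). Gadd45b (chr10:80928329-80934144), a stress gene induced by NF-kB, ran in the other order, with H2AK119Ub of 90.3, 100, 100 and 100% at 0 h, 93.7, 100 and 100% at 12 h and 86.9 to 100% at 24 h. Its H3K27ac was 0% in each 0 h library and 99.4, 89.9 and 99.9% at 12 h, and it rose (adjusted p = 3.0e-05). Gadd45b had Ring1B of 64.9, 73.1 and 84.1% at 0 h, 65.1, 43.2 and 78.5% at 12 h and 92.4, 91.6 and 93.4% at 24 h. Cell cycle and replication genes included E2f2 (chr4:136174857-136182843), with Ring1B of 31.6, 61.6 and 32.0% at 0 h, 85.6, 78.9 and 41.4% at 12 h and 92.6, 85.9 and 85.5% at 24 h. Cdk4, a G1 kinase, had H2AK119Ub of 100, 93.1 and 86.5% at 12 h, against 0% in each 0 h library (adjusted p = 2.3e-06).

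Among the 7 of 17 survival genes with a region, both orders were seen. Fas (chr19:34287907-34293790), the death receptor, had H2AK119Ub of 60.2, 100, 100 and 100% at 0 h, 61.7, 100 and 37.3% at 12 h and 100, 100, 100, 50.7 and 98.6% at 24 h. Its H3K27ac was 70.9, 100 and 89.3% at 12 h, against 0% in each 0 h library (adjusted p = 0.0019). Ring1B was 0% at Fas in every library but 1 at 12 h and 1 at 24 h (32.0 and 59.8%). It was not alone in this, as 341 members (13.8%) had a Ring1B peak in only 1 of the 24 h libraries. Another 222 (8.95%) had one in none. Bad, a pro-apoptotic BCL2 family gene, had H2AK119Ub of 83.5, 100 and 94.5% at 12 h, against 0% in each 0 h library (adjusted p = 7.0e-06). Of the survival list 2 of 5 tested regions rose in H2AK119Ub and 1 of 7 in H3K27ac, which is near the 31.2% and 15.3% of all regions tested.

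Genes of plasma cell differentiation, antigen presentation and histones also had regions. Prdm1, which encodes Blimp-1, the driver of plasma cell fate, had a region (chr10:44447885-44450964) with H3K27ac of 0% in each 0 h library, 97.4, 100 and 100% at 12 h and 100, 57.6 and 100% at 24 h. Its H2AK119Ub was 0, 100, 0 and 0% at 0 h, 0% in each 12 h library and 100, 100, 100, 0 and 100% at 24 h. Ciita, the transactivator of MHC class II genes, had 2 regions. The one at chr16:10515214-10518723 was acetylated at 100% in all 9 libraries and had H2AK119Ub in no library at 0 and 12 h. The histone list had 12 of 29 genes with a region, but these were 6 regions in all, since neighbouring histone genes share one. The region over H2ac4, H2bc3 and H3c2 (chr13:23745595-23754801) had H2AK119Ub of 100, 100, 0 and 75.2% at 0 h, 100% in each 12 h library and 100, 100, 100, 0 and 100% at 24 h.

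Of the 35 autosomal Polycomb complex genes 5 had a region, among them Kdm2b, Pcgf5, Ezh2 and Phc2. Pcgf5 (chr19:36374029-36377318), a subunit of variant PRC1, had Ring1B of 0% in each 0 h library, 68.8, 0 and 32.5% at 12 h and 54.9, 73.3 and 100% at 24 h. Its H3K27ac was 100% in each 12 h library, against 0% in each 0 h library (adjusted p = 1.6e-06). Kdm2b, the CpG island binding subunit of variant PRC1, had a region without a Ring1B peak at 24 h in any library.

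Genes of other lineages with a region were 4 of 17 T cell genes and 2 of 16 myeloid genes. Lck, a Src family kinase of T cells, had a region (chr4:129573055-129576854) with H3K27ac of 0, 100 and 100% at 0 h and 90.2 to 100% later, and Ring1B of 0% in every 24 h library. Itgam, which encodes CD11b, had H3K27ac of 0% in every library at 0 and 12 h and 100, 0 and 100% at 24 h, and H2AK119Ub of 64.9, 100 and 91.9% at 12 h against 0% in each 0 h library. Ctla4 had H3K27ac of 100, 100 and 65.5% at 12 h, against 0% in each 0 h library, and Ring1B of 0, 43.9 and 25.8% at 0 h, 0, 49.3 and 87.2% at 12 h and 95.1, 45.2 and 71.6% at 24 h. Over the whole T cell marker list the library means of H3K27ac coverage ranged between 0 and 9.05% at 0 h, 7.52 and 10.3% at 12 h, and 6.55 and 7.38% at 24 h. Over the myeloid list they ranged between 0 and 0.683% at 0 h, 0.687 and 4.28% at 12 h, and 0 and 4.66% at 24 h. The part of other cells in these regions was not tested. Wnt10b was the developmental Polycomb target with a region, and its H3K27ac was 0% in every library at 0 and 12 h and 100, 0 and 100% at 24 h.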

How the data were processed

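Per the labels' protocols, CUT&RUN libraries were made from immobilised CD23+ splenic B cells with antibodies to 6 targets. Trimmomatic 0.32, Bowtie2 2.3.4.1, Picard, deepTools 3.5.1 and the mm10 build are named in the submitters' processing notes. The authors deposited 1 SEACR peak list per library for the Cast allele, with total and maximum signal per peak. Per the file names these were called in normalised relaxed mode for the histone marks and as a fixed top share (0.01, stringent) for Suz12 and Ring1B. The SEACR version and the rule for assigning reads to alleles were not given in the sources used here. Libraries of H3K9me3 carry H3K29me3 in their titles and H3K9me3 as antibody, and the antibody was followed. The 3 IgG samples were not analysed here.

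Peak signal was used only to rank peaks within a list. The percent of each region covered by peaks was computed per library. It was tested with limma 3.58.1 (R 4.3.3, trend and robust options, Benjamini-Hochberg over all tested regions) where at least 2 libraries had a peak. The procedure was also run on simulated data with normally spread coverage. Real peaks often covered none or all of a region, so that run does not measure how the fit performs on these lists. H2AK119Ub, H3K27ac and H3K27me3 were tested at 12 h against 0 h without the 24 h libraries that chose the regions, and Ring1B, Suz12 and H3K9me3 at 24 h against 0 h. No member region had enough H3K9me3 peaks for a test, and 26 regions of other kinds did, of which 4 were called higher. Depth is unknown, and p-values measure only the spread between these libraries. Same-numbered libraries of different times were not treated as pairs.

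The members, lists and named regions were chosen with earlier results of these data known. Named were the 10 longest regions with a gene in reach, the 6 with the highest Ring1B and the 6 with the highest Suz12, the 4 with the largest called difference per test and direction, and up to 3 genes per list by member length, with predicted genes left out. A few genes that this choice named are not reported here. Gene positions and start windows are from RefSeq GRCm38.p6, with start windows for 18 autosomes. Alternatives were other library numbers for the rule, stricter peaks, lists of equal length, scaling by autosomal coverage, presence instead of percent, other limma options, a replicate block and leaving out each library.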

Additional observations from a re-analysis of the deposited data

Results flagged for a closer look

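At 24 h H2AK119Ub replicate 4 covered 60.3% of the bases of the doubly marked regions and stood apart below the other 4 libraries, which covered 93.4 to 99.6%. In 23 regions named in the results the H2AK119Ub libraries of each time were checked for 1 library far from the rest. At 24 h 19 regions had a lowest library that stood apart, and in 13 of them it was replicate 4. It was at 0% in Tet2, Ets1, Ciita, Tnfaip3, Prdm1, H2ac4 and Tlr9, and at 22.2% in Btg2, 39.4% in Pax5, 49.0% in Irf8, 50.7% in Fas, 67.5% in Irak4 and 86.9% in Gadd45b. In the other 6 it was another replicate, at 0% in Dennd1b, 61.0% in Itgam, 87.3% in Cxcr4, 97.5% in Cdk4, 97.7% in Pde2a and 99.1% in Nfkb2. At 0 h 1 library stood apart in 5 regions, with 99.3% in Dennd1b, 97.5% in Tet2, 90.3% in Gadd45b and 60.2% in Fas against 100% in the others, and with 100% in Prdm1 against 0% in the others. Such a gap marks about 1 group in 20 by chance, and among values tied at 0 or 100% it marks any single departure.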

How the results depend on the processing

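The rule gave 1318 regions (4.30 Mb) with H2AK119Ub required in 5 of 5 libraries, 15.1 Mb with 3 of 5, 5.87 Mb with H3K27ac in 3 of 3, and 734 regions (3.93 Mb) from the stronger 50% of each list's peaks by total signal. Leaving out each 24 h library gave 1714 to 3406 regions and 6.02 to 14.4 Mb, the extremes being without H3K27ac replicate 1 and without H2AK119Ub replicate 4.

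For H2AK119Ub at 12 h against 0 h the 530 member calls became 821 with scaling, 281 with stricter peaks and 47 with lists of equal length, and 516 to 804 when each library was left out. The share called higher with scaling was 51.0% of members tested, against 42.0% of all regions tested. It was 32.7% against 31.7% with stricter peaks and 8.96% against 6.63% with lists of equal length. At 516 calls without a library it was 33.8% against 30.2%, and at 804 it was 61.0% against 46.5%. For H3K27ac the 325 calls became 132 with lists of equal length, with more lower than higher, and 305 to 528 when each library was left out. With lists of equal length the share called higher was 8.07% of members tested and 8.02% of all regions tested. At 305 calls it was 14.1% against 13.6%, and at 528 it was 25.4% against 28.4%. Cutting each list to the same number of peaks also leaves fewer regions to test. For H3K27me3 the count of 0 became 1 with stricter peaks, 2 with presence, 1 without trend and robust options, and 0 to 5 when each library was left out, all lower. For Ring1B at 24 h against 0 h the count of 0 became 7 with a peak required in 3 libraries, 8 with stricter peaks, 17 with lists of equal length, 75 with presence, 63 without trend and robust options, and 0 to 18 when each library was left out. The share called higher was 0.338% of members tested against 0.126% of all regions with a peak in 3 libraries. It was 0.397% against 0.179% with stricter peaks and 0.780% against 0.323% with lists of equal length. With presence it was 3.30% against 1.34%, and without trend and robust options 2.73% against 1.30%. Without 12 h replicate 1, which gave 18 calls, it was 0.757% against 0.240%. For Suz12 it became 67 with presence and 17 without trend and robust options. With presence 60 of 1968 members were lower and 7 higher, against 171 and 52 of all 11109 regions. Without trend and robust options 14 members were lower and 3 higher, against 41 and 9 of all regions. The cause of these moves was not tested. Members with all 24 h Ring1B libraries above all 0 h ones numbered 535 to 574 under scaling, stricter peaks and lists of equal length. Those with all 24 h Suz12 libraries below all 0 h ones numbered 141 to 183. In the main setting the shares were 23.0% of members and 7.85% of all regions for Ring1B, and 7.82% and 4.05% for Suz12. Shares over all regions under the alternatives are not given here, so these counts alone do not set the members apart. These counts, and the rule with 4 of 4 H2AK119Ub libraries, were added after seeing the data. Mean Ring1B coverage was 65.6% at 24 h and 35.3% at 0 h in regions held by all H2AK119Ub and H3K27ac libraries, and 45.5% at 24 h and 22.6% at 0 h with stricter peaks. Of 184 other coverage values under these alternatives 159 stayed within 1 SD of the library mean and 25 did not.

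The fit without a filter gave no value for H3K27me3 or H3K9me3, nor did stricter peaks or lists of equal length for H3K9me3. Whether same-numbered libraries of different times are pairs is not known from the labels. Correlations of their deviations were -0.0739 to 0.222, against -0.374 to 0.212 for differently numbered libraries. With so few libraries per group these values cannot settle the pairing. With a replicate block the member calls numbered 461 for H2AK119Ub, 286 for H3K27ac and 0 for each other target. The share called higher was 30.4% of members tested against 26.1% of all regions tested for H2AK119Ub. For H3K27ac it was 13.5% against 12.3%. Coverage depends on list length, peak threshold and the density of Cast variants, and depth is unknown.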
